A study of Mus musculus with 2 samples.

Results

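The transcripts of 9 complement components and regulators were compared between an atherosclerosis-prone and an atherosclerosis-resistant stretch of the mouse aorta. The members are C1ra, C1s, C2, C3, Cfb, C6, C7, Serping1 and Cd55, chosen by the gene name of the array probe or an older name of the same gene. All 9 were found, on 15 probes of 1 spot each, among 21367 genes or transcripts measured in all. C1ra was found as C1r, Cd55 as Daf1 and C7 as A530026G17, an older name that the RefSeq gene table lists for C7. All 15 probes passed the filter on dim signals.

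The animals were wild-type C57Bl/6 mice of 16 weeks, 3 males and 3 females, for which the labels name no treatment, and every aorta had been perfused with Triton X-100 to strip the endothelium. The prone sample ran from the aortic root through the arch to 2 mm into the thoracic aorta, and the resistant sample took the 6 mm that follow. The labels speak of smooth muscle cells, but whole pieces of wall were lysed. RNA of the 6 mice was pooled into 1 pool per region, and both pools were hybridised to each of 2 two-colour Agilent whole-genome arrays, with the arch labelled Cy5 on the first and Cy3 on the second. A single pool per region leaves the spread between animals unmeasured, and no test could be made. Each value is the arch-over-thoracic ratio on the log2 scale, averaged over the arrays, with ± giving how far each array lay from the average. This is a technical error only, and its precision is limited by having 2 arrays. Of the gene spots, 71.3% (arch, array 1) and 73.9% (thoracic, array 2) were well above background in Cy5. In Cy3 the shares were 81.1% (thoracic, array 1) and 81.5% (arch, array 2). A gene was called higher or lower where its ratio was at least 1.5-fold (0.58 on the log2 scale) in the same direction on each array. Each gene is represented by its brightest probe unless a probe is named.

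Complement is a cascade of plasma proteins made by the liver and by many tissues, among them cells of the vessel wall, fat and macrophages. The C1 complex, in which the proteases C1r and C1s act, cleaves C4 and C2 to start the classical pathway, and factor B forms the convertase of the alternative pathway. Both converge on the cleavage of C3, after which C5 to C9 can assemble into a membrane pore. C1 inhibitor (Serping1) blocks C1r and C1s, and decay-accelerating factor (Cd55) dissolves convertases on the surface of the body's own cells.

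Of the 9 members, C3 alone met the call, at 1.65-fold the thoracic level in the arch pool, and 0 members were called lower. Among all genes 0.257% were called higher and 0.229% lower (55 and 49 genes), 0.487% in either direction. C2 lay furthest to the other side, with an arch level 0.792 times that of the thoracic aorta, followed by C7 at 0.854 times, and neither met the call. The other 6 members lay between 0.890 times (Serping1) and 1.09 times (C1ra and Cd55) the thoracic level. The median of the 9 was 0.05, against 0.00 over all genes. In whole tissue a lower share of the cells that make a transcript and less of it per cell cannot be told apart.

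The ratio was above 0 on each array for 5 members (C1ra, C3, Cfb, C6 and Cd55) and below 0 on each array for 3 (C2, C7 and Serping1), while C1s changed sign between the arrays. Over all genes 28.4% were above 0 and 26.5% below 0 on each array. As a technical scatter, the median distance of the arrays from their mean was 0.04 over all genes, against 0.07 for C3 and 0.15 for Serping1. In the main setting 93.1% of genes lay within 0.2 of 0. That setting adds an offset of 50 units to every signal, which draws the ratios of dim spots towards 0. The median signal above background was 39.2 to 55.9 units, so this share does not show that most genes were equal in the pools.

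**Figure D1:**
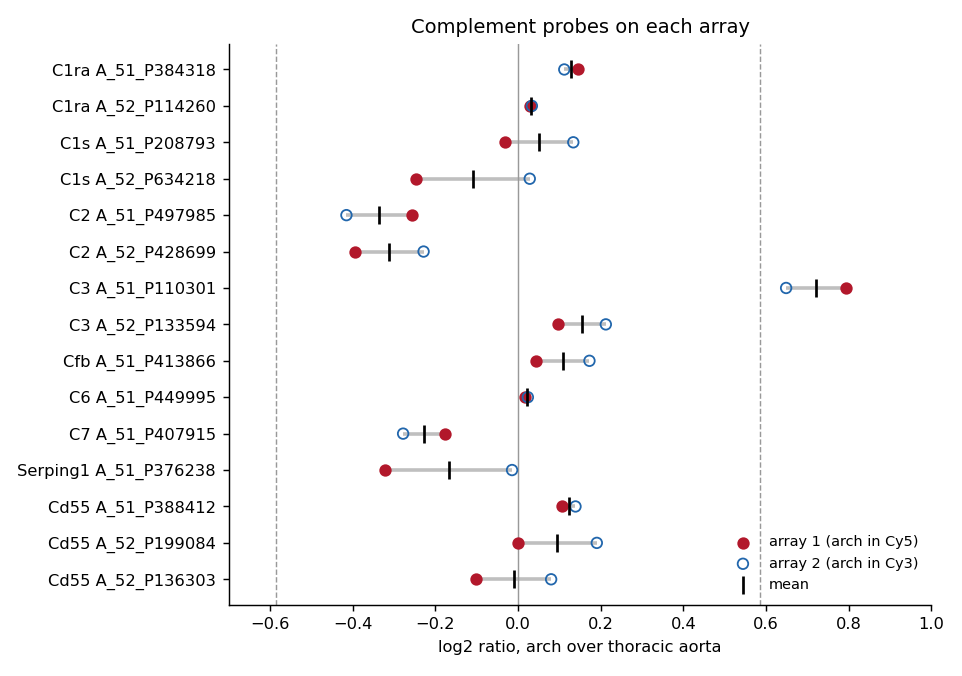
Each row is 1 complement probe and the x axis is its log2 ratio of arch over thoracic aorta, with array 1 filled, array 2 open and the mean as a bar. Dashed lines mark 1.5-fold. Only the C3 probe A_51_P110301 lies beyond that line on both arrays. Both C2 probes, the C7 probe and the Serping1 probe lie below 0 on both, with Serping1 at −0.01 on array 2.

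In C3, the probe A_51_P110301 had normalised intensities of 13.30 and 13.25 log2 units in the arch (arrays 1 and 2) and of 12.51 and 12.61 in the thoracic pool. Both arch readings lay above both thoracic readings, in either dye. The ratio was 0.72 ± 0.07, from 0.79 on array 1 and 0.65 on array 2, and 40 of the 21367 genes had a higher ratio. This is a bright spot, with signals above local background of 10273 and 8654 intensity units in the arch and 5331 and 7426 in the thoracic pool before normalisation, and it was not saturated.

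The other C3 probe, A_52_P133594, named for the same RefSeq transcript, gave a smaller ratio in the same direction. Which part of the transcript each probe reads was not determined here. The dimmer probe had normalised intensities of 6.46 and 6.64 in the arch and 6.37 and 6.43 in the thoracic pool, a ratio of 0.15 ± 0.06. Again both arch readings were the higher ones. The spot was dim, 40.4 and 66.4 units above background in the arch and 51.3 and 43.3 in the thoracic pool before normalisation, where the dyes were not yet balanced. The offset of 50 units added to every signal draws the ratio of such a spot towards 0. With an offset of 0 this probe gave 0.34 ± 0.12 and in the scanner software's own ratios 0.39 ± 0.07, while the bright C3 probe stayed at 0.72 and 0.71. As the mean of both probes C3 measured 0.44 ± 0.01 and was not called. With median centring in place of the intensity-dependent (loess) normalisation the bright probe gave 0.55 ± 0.25, with 0.80 on array 1 and 0.30 on array 2, and was not called either.

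The bases just before the start of C3 are shown because C3 was the member that met the call, and those of C7 because it had the lowest ratio of the 6 members for which the RefSeq promoter table (GRCm38.p6) holds a sequence. Each run is the 250 bases before the start, 5′ to 3′ on the gene's strand, for C3 chr17:57228137-57228386 and for C7 chr15:5063774-5064023, both on the minus strand. Capitals mark matches on either strand to TTNNGNAA (the C/EBP type), TTCNNNGAA (the GAS type, bound by STAT proteins) or an NF-kB-type motif.
C3: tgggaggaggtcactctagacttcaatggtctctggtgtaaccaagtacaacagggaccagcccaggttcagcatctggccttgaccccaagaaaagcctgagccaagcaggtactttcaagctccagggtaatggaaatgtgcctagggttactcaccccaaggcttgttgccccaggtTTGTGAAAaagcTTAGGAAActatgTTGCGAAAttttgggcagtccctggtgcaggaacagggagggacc
C7: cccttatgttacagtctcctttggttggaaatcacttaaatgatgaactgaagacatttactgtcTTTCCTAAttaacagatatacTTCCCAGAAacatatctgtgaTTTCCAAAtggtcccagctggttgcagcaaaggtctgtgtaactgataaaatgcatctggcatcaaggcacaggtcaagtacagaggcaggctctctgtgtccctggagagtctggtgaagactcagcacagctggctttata
C3 held the C/EBP letters at 3 positions, 70 to 63, 58 to 51 and 45 to 38 bases before the start, of which the last reads as a match on both strands. In the 32851 mouse promoters of the same length, 36.8% held this motif at least once and 2.61% at 3 or more positions, a count taken after the C3 matches were seen. C7 held it at 2 positions and the GAS letters at 1 position, 164 to 156 bases before the start, which do not overlap. The GAS letters occurred in 7.02% of promoters and the NF-kB-type letters, of which neither window held a match, in 4.65%. Other spellings of the NF-kB type were not searched. A match to letters is a description of the sequence and not a binding site.

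The proteases that start the classical pathway were close to equal in the pools. C1ra, the protease that activates C1s, had arch intensities of 10.58 and 10.66 and thoracic intensities of 10.43 and 10.55 at its bright probe, a ratio of 0.13 ± 0.02. The arch was the higher pool on each array, but its lower reading lay only just above the higher thoracic one. The other C1ra probe gave 0.03 ± 0.00, and with median centring the bright probe turned to −0.04. C1s, which cleaves C4 and C2, measured 9.46 and 9.62 in the arch and 9.49 and 9.48 in the thoracic pool, a ratio of 0.05 ± 0.08. Its arrays differed in sign, as did those of its dimmer probe (−0.11 ± 0.14), and its mean turned to −0.11 with median centring. C1ra and C1s lie side by side, and each has a duplicated copy in the mouse genome (C1rb and C1s2) that the probes may not tell apart.

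C2, which supplies the protease part of the classical convertase, was lower in the arch at both of its probes. At the bright probe the arch measured 9.92 and 9.90 and the thoracic pool 10.18 and 10.31, a ratio of −0.34 ± 0.08. At the other probe the arch measured 7.48 and 7.54 and the thoracic pool 7.87 and 7.77, a ratio of −0.31 ± 0.08. Every arch reading lay below every thoracic reading of the same probe. The gene stayed below 0 under each alternative, from −0.26 on array 1 alone to −0.50 with median centring, without meeting the 1.5-fold call in any of them. The alternative filters on dim signals left its value unchanged. Of the 21367 genes 195 had a lower ratio.

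Cfb encodes factor B, the alternative-pathway counterpart of C2, and the genes are neighbours on chromosome 17 with 0 protein-coding genes between them. Cfb measured 9.80 and 9.99 in the arch and 9.76 and 9.82 in the thoracic pool, a ratio of 0.11 ± 0.06. Its readings in the pools overlapped. On each array Cfb was above 0 and C2 below 0, but with median centring Cfb also turned, to −0.06, with C2 at −0.50. The difference between the neighbours was not tested.

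**Figure D2:**
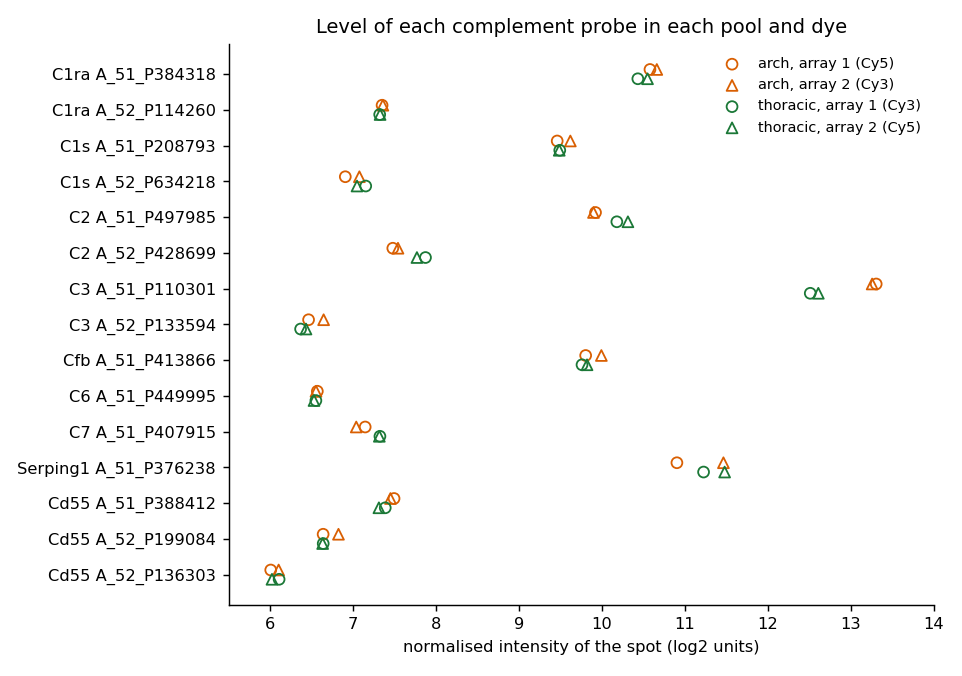
The x axis is the normalised spot intensity in log2 units, and each complement probe has 4 readings, 1 per pool and dye. Arch readings (orange) stand clear of thoracic readings (green) to the right for the bright C3 probe and to the left for C2 and C7. At the dimmer C3 probe, both C1ra probes, C6 and the brightest Cd55 probe the arch readings are higher by a narrow gap. Levels of different probes are not comparable, since probes differ in how well they bind.

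The terminal components, which form the pore, gave a low and an even reading. C7, which anchors the growing complex in the membrane, measured 7.15 and 7.04 in the arch and 7.32 and 7.32 in the thoracic pool. Both arch readings were the lower ones, and the ratio was −0.23 ± 0.05. This probe is fairly dim, and with an offset of 0 its ratio was −0.35 ± 0.08 and with the scanner software's ratios −0.36 ± 0.08, still short of the call. C6, the component that joins before C7, measured 6.57 and 6.55 in the arch and 6.55 and 6.53 in the thoracic pool, a ratio of 0.02 ± 0.00. This spot was dim too, and the scanner software's ratio was 0.08 ± 0.01. C6 and C7 lie near each other on chromosome 15, with 1 protein-coding gene between them.

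Of the regulators, Serping1 encodes C1 inhibitor, the serpin that blocks C1r and C1s. It measured 10.90 and 11.46 in the arch and 11.22 and 11.48 in the thoracic pool. The readings overlapped, and the ratio of −0.17 ± 0.15 came almost entirely from array 1 (−0.32), with −0.01 on array 2. With median centring it was −0.34 ± 0.04, from −0.38 and −0.31. Cd55 has 3 probes. The brightest measured 7.49 and 7.45 in the arch and 7.39 and 7.31 in the thoracic pool, a ratio of 0.12 ± 0.02, with both arch readings above both thoracic ones. That value moved with the processing, to 0.03 with median centring, 0.07 as the mean of the probes and 0.20 in the scanner software's ratios. The other probes gave 0.09 ± 0.10 and −0.01 ± 0.09, and in the last of these the arch signal of array 1 did not stand well above background. A second mouse gene, Cd55b, encodes a closely similar protein, and its brightest probe gave 0.08 ± 0.04.

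**Figure D3:**
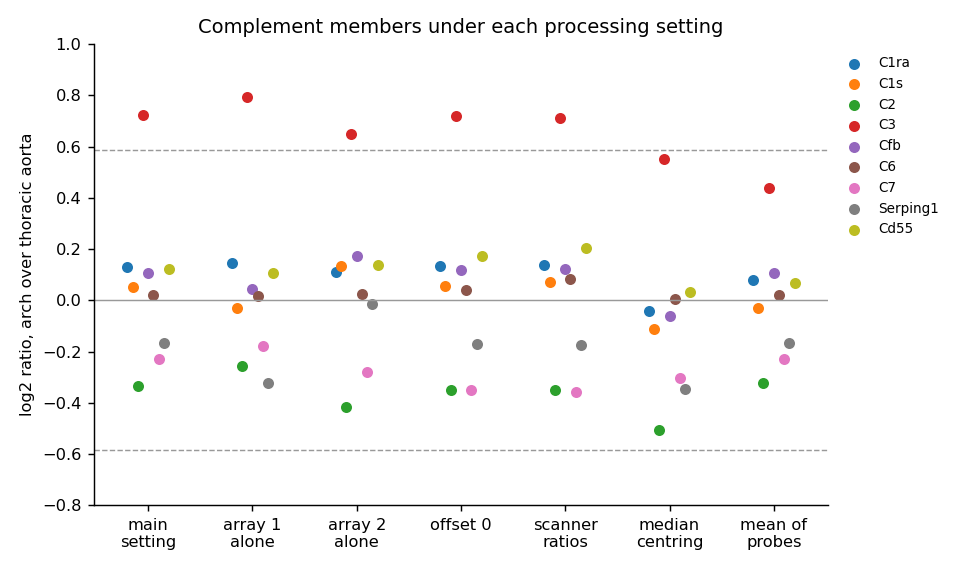
The y axis is the log2 ratio of arch over thoracic aorta of each complement member, and the x axis the processing setting. Dashed lines mark 1.5-fold. C3 is the highest member in each setting shown and falls inside the line with median centring (0.55) and as the mean of its probes (0.44), and C2 runs from −0.26 to −0.50.

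Other genes of the cascade were read from a list of 46, of which 41 were measured, 4 had only dim probes (Mbl1, C8a, C8b and C9) and 1 had no probe under its name (C1rb). Of the 41, 1 was called higher and 0 lower, against 0.257% and 0.229% of all genes. The median of the 41 was −0.01, against 0.00 over all genes. The called gene was Colec11, a soluble collectin that starts the lectin pathway, at 0.78 ± 0.06 or 1.72-fold. Its intensities were 7.61 and 7.81 in the arch and 6.89 and 6.97 in the thoracic pool, and the scanner software's ratio was 1.19 ± 0.05. Cfd, the factor D protease that activates factor B, measured 0.37 ± 0.01, and the membrane collectin Colec12 measured 0.32 ± 0.01. With median centring Cfd was at 0.19 ± 0.20 and Colec12 at 0.15 ± 0.08. The next highest were C3ar1, the receptor of the C3a fragment, at 0.11 ± 0.02, and C4b, which encodes C4, at 0.11 ± 0.12 with a value of −0.01 on array 1. C4b has a near-identical copy, C4a, which measured 0.00 ± 0.01 and 0.06 ± 0.10 in the scanner software's ratios. That spot was dim, and its arch signal on array 1 did not stand well above background. The probes may not tell the copies apart.

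At the lower end of that list were Clu (−0.22 ± 0.27), a fluid-phase inhibitor of the pore whose arrays differed in sign, and vitronectin (Vtn, −0.22 ± 0.05), another such inhibitor. Vtn measured −0.44 with an offset of 0 and −0.50 in the scanner software's ratios. Properdin (Cfp), which stabilises the alternative convertase, measured −0.20 ± 0.02, and C1qa, a chain of the recognition molecule C1q, −0.20 ± 0.13. The 10 membrane regulators lay from −0.12 to 0.11 and the 9 receptors from −0.12 to 0.11, with 0 called in either group. Many of their probes were dim, where the offset draws ratios towards 0. In the scanner software's ratios the membrane regulators lay from −0.18 to 0.41 and the receptors from −0.37 to 0.25. Both measured terminal genes, Hc (encoding C5) and C8g, lay at −0.02 and 0.01.

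**Figure D4:**
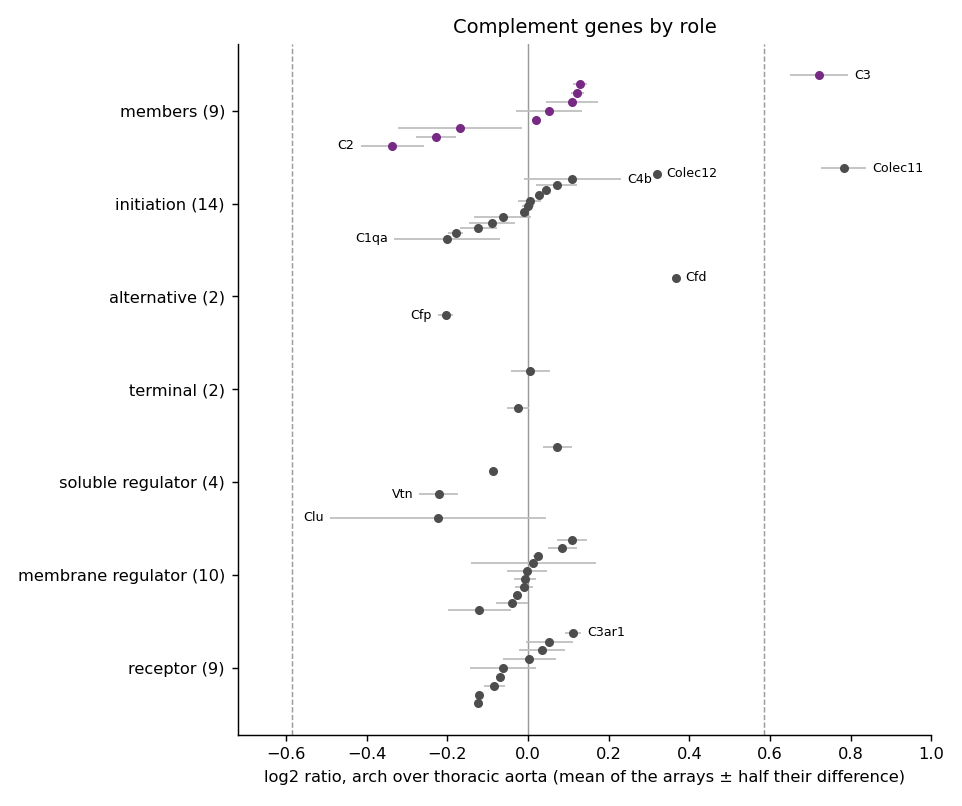
Each point is 1 complement gene, with the log2 ratio of arch over thoracic aorta on the x axis, and bars span the values of both arrays. Rows group the 9 members and the 41 other measured genes by role, and dashed lines mark 1.5-fold. C3 and Colec11 are the points beyond the line on both arrays.

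Marker genes of cells that the wall pieces could hold, and of hepatocytes, which are liver cells, were read beside the members. All 8 smooth muscle markers were well above background in both pools, with a median of −0.03 (−0.17 with median centring) and 0 called. The furthest from 0 were Des (−0.22 ± 0.01) and Myh11 (−0.22 ± 0.03), at ratios close to that of C7. Adipocyte markers had a median of 0.50, with 3 of 8 called higher (0.257% of all genes) and Retn below 0. Among them Pck1 measured 0.78 ± 0.04 and Plin1 0.68 ± 0.00. Their summed intensity was 29218 and 27992 units in the arch and 21288 and 22457 in the thoracic pool. Such a sum mainly follows the brightest probes, here Fabp4 (0.34 ± 0.09, not called), and is no measure of the list as a whole. Mesothelial markers had a median of 0.39, and all 8 were above 0 on each array (28.4% of all genes) with 0 called. Upk3b measured 0.65 ± 0.12 and Msln 0.54 ± 0.05, and the list summed to 2140 and 2276 units in the arch and 1608 and 1666 in the thoracic pool. All 16 markers of these cells were well above background in both pools. C3 was higher in the same pool as these lists, and their part in its ratio was not tested.

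Macrophage markers went the way of C2 and C7, and of Serping1, which was lower almost only on array 1 (−0.32, against −0.01 on array 2). All 10 were below 0 as means and 9 on each array (26.5% of all genes), with a median of −0.14 and 0 called. Tyrobp measured −0.35 ± 0.03 and Lyz2 −0.29 ± 0.13. The list summed to 23825 and 21611 units in the arch and 26743 and 28205 in the thoracic pool, mostly from Lyz2. The hepatocyte list had a median of −0.16 over 6 measured genes (−0.48 in the scanner software's ratios), with Alb called lower (−0.95 ± 0.01) and Fgb at −0.48 ± 0.05. Its member Ahsg lay on the other side, at 0.36 ± 0.13. The list summed to 2068 and 1917 units in the arch and 2504 and 2529 in the thoracic pool, a difference mostly in Alb. Ttr was too dim to be kept. The part of these lists in the C2, C7 and Serping1 ratios was not tested. Adventitial fibroblast markers had a median of 0.01, and split in both directions, with Lum at 0.55 ± 0.06 and Pdgfra at 0.55 ± 0.15 but Col1a1 at −0.30 ± 0.01 and Serpinf1 at −0.24 ± 0.07. Lymphocyte markers had a median of 0.04, with Ms4a1 at 0.33 ± 0.02 and Ptprc at −0.20 ± 0.12. Endothelial markers, in aortas perfused with detergent, had a median of 0.06 (0.30 in the scanner software's ratios), with Vwf at 0.26 ± 0.02 and Emcn at 0.25 ± 0.02. Cdh5 (−0.05 ± 0.02), Tek (−0.04 ± 0.04) and Pecam1 (−0.02 ± 0.05) lay below 0 as means. With median centring the fibroblast and lymphocyte medians turned to −0.16 and −0.01, and no other of these 8 lists changed the sign of its median.

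**Figure D5:**
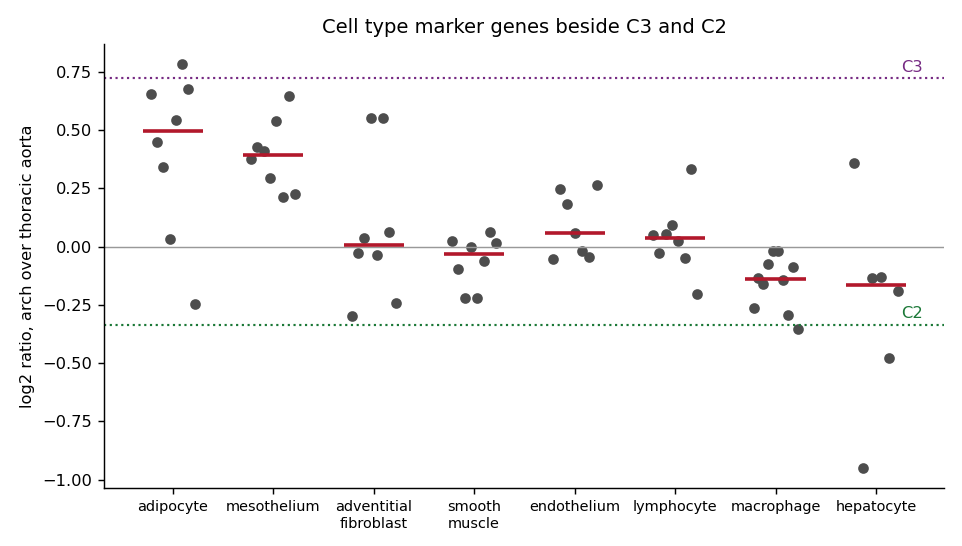
The y axis is the log2 ratio of arch over thoracic aorta, each point is a marker gene of the cell type on the x axis, and red bars are medians. Adipocyte and mesothelial medians (0.50 and 0.39) lie on the side of C3, and the macrophage median (−0.14) on the side of C2. Dotted lines mark C3 at 0.72 and C2 at −0.34.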

How the data were processed

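Two-colour Agilent arrays measured 1 RNA pool per aortic region on 2 arrays with the dyes swapped, which count as 1 replicate per region. Agilent Feature Extraction 9.1.1.1 read the spots, per the submitters' processing notes. Per the file headers, the deposited scanner output holds 2 kinds of value: the intensity of every spot and its surroundings in Cy5 and Cy3, and a log10 ratio (Cy5 over Cy3) that the software formed after its own background and dye corrections. The authors' value table was set against this log10 ratio and matched it with the arch as numerator for 99.9% of features per array (tolerance 1e-06), each column having a median of 0. Its scale and direction were found from this match, and its centring beyond that is not stated.

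From the intensities, limma 3.58.1 in R 4.3.3 corrected background by normexp (offset 50) and normalised within each array by loess, control spots at weight 0. Spots marked as non-uniform or flagged by hand (20 and 4 of 41534) were left out. Spots marked only as population outliers and saturated spots were kept, and the sign of array 2 was turned. Kept probes (30521 of 41174) had at least 1 region in which each array read well above background. A gene took its brightest kept probe. Levels per channel come from loess and Aquantile normalisation. Symbols came from the RefSeq table (GRCm38.p6), by accession for 22864 probes and by name or synonym for 10230, while 8080 kept the name in the file. Some complement genes are not reported here. No genome build is given for the array in the sources used here. The steps were tested on simulated dye-swap arrays.

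The members, lists and rules were chosen with earlier results of these data known. Named genes are all members with all their probes, the called genes of the other complement list with the 4 highest and 4 lowest of the rest, and up to 2 genes per marker list, those furthest from 0. C4a, Hc, C8g, Cd55b, Retn, Fabp4, Ttr, Ahsg, Col1a1, Serpinf1, Cdh5, Tek, Pecam1 and the genes without a kept probe were named after their values were seen. Alternatives were an offset of 0, the scanner software's ratios, the value table, median centring, the mean over probes, other filters and folds, and each array alone.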

Additional observations from a re-analysis of the deposited data

How the results depend on the processing

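C3 kept its call with an offset of 0 (0.72) and in the scanner software's ratios (0.71), which the value table repeats. It lost the call with median centring (0.55) and as the mean of its probes (0.44), where the count of members called higher was 0. That count was also 0 with a 2-fold call. The other filters left the C3 value unchanged, and each array alone met the call because the rule requires both arrays. No member was called lower under any alternative, 1.3-fold and 2-fold calls included. The median of the members was 0.02 on array 1 alone, 0.11 on array 2 alone and −0.0601 with median centring. C1ra and Cfb changed sign with median centring, and C1s with median centring, on array 1 alone and as the mean of its probes. The 1 other complement gene called higher became 0 with a 2-fold call, and the count stayed at 1 under the other alternatives. Against 55 genes higher and 49 lower over the whole array, there were 117 and 104 without the offset, 152 and 128 both from the value table and from the scanner's ratios, 134 and 112 with a 1.3-fold call, and 9 and 15 with a 2-fold call. Median centring gave 28 and 75, a share of higher calls of 27.2% against 52.9%. The cause of these shifts was not tested. No paired analysis was possible because each region has 1 pool. Low signal limits C6, the dimmer C3 probe and the dimmer Cd55 probes.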
